A study of Mus musculus with 83 samples.

Results

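The course of estrogen synthesis, inactivation and reception through ovulation in culture was followed in 5 genes: Cyp19a1 and Hsd17b1, which make estradiol, Sult1e1, which inactivates it, and Esr1 and Esr2, its receptors. They were chosen by name, as 5 of the 21572 gene rows in the deposited table of estimated counts, and all 5 passed the filter on low counts that left 11889 genes for testing. In the ovary, theca cells make androgens from cholesterol, and granulosa cells turn these into estrogens with aromatase, the product of Cyp19a1, after which 17β-hydroxysteroid dehydrogenase type 1, the product of Hsd17b1, reduces weak estrone to potent estradiol. Estrogen sulfotransferase, the product of Sult1e1, attaches a sulfate to estrogens so that they no longer bind their receptors. Estrogen receptor β (Esr2) is the main form of granulosa cells and estrogen receptor α (Esr1) that of theca and stroma, and the surge of luteinizing hormone is known to end estradiol synthesis as follicles turn towards making progesterone.

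By its title, the study asked whether freezing follicles preserves how their transcripts change during ovulation outside the body. Wild-type CD-1 mice, which are outbred, gave ovarian follicles that were grown, either fresh or after vitrification (cooling to a glass without ice), for 8 days in 0.5% alginate with recombinant FSH. Those that had reached 300 to 350 µm then received human chorionic gonadotropin (hCG, a ligand of the luteinizing hormone receptor) at 1.5 IU/ml together with EGF at 10 ng/ml and rFSH at 10 mIU/ml, and collection was 0, 1, 4 or 8 h later. One Smart-Seq2 library, which copies whole transcripts and does not mark the strand, was made from each follicle, giving 83 libraries in 8 groups: 18, 6, 7 and 4 fresh follicles and 15, 14, 7 and 12 vitrified follicles at 0, 1, 4 and 8 h. All groups thus shared strain, genotype, culture and, after 0 h, the same hormones, and no group was left without hCG at the later times.

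Libraries came from 3 plates by their titles, and these bear on every comparison below. Follicles of 0 h filled one plate and no other time was on it, so a change from 0 h to any later time cannot be told apart from an effect of plate. A plate with both kinds of follicle at 1, 4 and 8 h, named the shared plate in what follows, carried every fresh library after 0 h plus vitrified ones (5 at 1 h, 7 at 4 h, 3 at 8 h). The last, the vitrified-only plate, carried 9 more vitrified follicles at 1 h and another 9 at 8 h. Vitrified and fresh follicles were therefore compared within the 0 h plate or the shared plate, and the vitrified-only plate was kept apart. No plate row held more than 1 group, so rows and groups cannot be told apart. Because animals and culture batches are not named in the labels, the p-values reflect differences among follicles that may in part be technical.

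Promoter windows of the genes whose transcripts moved most are shown because hCG acts through cyclic AMP and because nuclear receptors of the NR5A family, CREB and RUNX factors are known regulators of granulosa genes. Each window runs from 250 bases before to 50 after a transcription start, 5′ to 3′ on the gene's strand, from RefSeq on build GRCm38.p6. The table held windows for Cyp19a1, Sult1e1, Esr1 and Esr2 but not Hsd17b1. For Cyp19a1, which has 3 listed starts, the one nearest the coding sequence is shown, 342 bases before the first coding base. Capitals mark matches to a searched motif on either strand.
Sult1e1, chr5:87591562-87591861, minus strand: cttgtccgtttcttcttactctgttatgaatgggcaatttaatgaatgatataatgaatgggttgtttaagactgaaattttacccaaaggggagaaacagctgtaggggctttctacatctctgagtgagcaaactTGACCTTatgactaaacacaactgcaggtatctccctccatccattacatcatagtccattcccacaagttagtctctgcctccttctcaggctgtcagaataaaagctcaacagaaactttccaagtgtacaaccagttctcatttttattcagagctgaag
Esr2, chr12:76177210-76177509, minus strand: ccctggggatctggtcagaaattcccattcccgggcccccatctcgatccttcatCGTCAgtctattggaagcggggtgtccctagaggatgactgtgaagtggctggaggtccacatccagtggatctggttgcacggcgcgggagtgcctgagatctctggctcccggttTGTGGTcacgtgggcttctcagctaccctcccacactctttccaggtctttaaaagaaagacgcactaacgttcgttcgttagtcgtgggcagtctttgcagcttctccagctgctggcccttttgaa
Cyp19a1, chr9:54193694-54193993, minus strand: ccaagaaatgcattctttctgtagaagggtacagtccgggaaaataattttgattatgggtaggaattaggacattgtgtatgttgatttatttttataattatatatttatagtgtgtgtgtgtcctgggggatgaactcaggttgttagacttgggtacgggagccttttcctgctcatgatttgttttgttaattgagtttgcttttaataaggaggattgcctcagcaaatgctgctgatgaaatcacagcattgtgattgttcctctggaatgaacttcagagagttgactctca

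On GRCm38 (GENCODE vM21), Cyp19a1 spans chr9:54165937-54268110 on the minus strand, Hsd17b1 chr11:101078411-101080527 on the plus strand and Sult1e1 chr5:87575969-87591594 on the minus strand. Esr1 spans chr10:4611593-5005614 on the plus strand and Esr2 chr12:76120419-76177259 on the minus strand. The files count reads per gene, so exons and alternative starts were not told apart.

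The motifs searched were AAGGTCA (bound by NR5A and other nuclear receptors), the cyclic AMP response element TGACGTCA and its half-site TGACG, which lies inside the full element, the RUNX motif TGTGGT, the motif of the zinc finger GATA factors AGATAA, the AP-1 motif TGANTCA and the C/EBP motif TTGCNNAA, each on both strands. In Sult1e1, AAGGTCA matched once, on the strand opposite to the gene and therefore printed as its reverse complement, with its first printed base 113 bases before the start. This motif occurs in 4.72% of 32851 mouse promoter windows of the same length. Esr2 held TGACG on the opposite strand, printed as CGTCA, 195 bases before the start, a half-site found in 20.8% of windows, and TGTGGT on its own strand 78 bases before the start, found in 16.8%. The Cyp19a1 window held none of the 7 motifs as spelled, which says only that these letters are not in this window. Of the other windows, the Cyp19a1 start farther upstream by 1 place held TGTGGT and the distal start of Esr1 held TTGCNNAA, motifs found in 16.8% and 10.8% of windows.

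Levels are given as CPM, read counts relative to the library total, scaled by TMM, a method that equalises the bulk of genes between libraries. Total counts per library ran from 682200 to 6504588, and 11830 to 17233 genes had a count. Granulosa markers summed to a median of 56300 CPM (40600 to 71400) in fresh follicles at 0 h, theca and stroma markers to 1340 CPM (306 to 2800) and oocyte markers to 32.4 CPM (14.1 to 80.2). Of 7 immune markers in the table, Lyz2 had the highest level (median 7.94 CPM, at 0 in 16 of 83 libraries), and the others were at 0 in 40 (C1qb) to 72 (Adgre1) libraries, with Ptprc at 0 in 66. Among granulosa markers, Amh, a product of small growing follicles, was at 0 in 54 libraries and Fshr in 2. Vitrified 4 h replicates 1 and 2 were more alike than any other pair of their group, with a chi-square per degree of freedom of 1.96 between their counts against a median of 18.4 over the 21 pairs. That exceeds sampling noise, and they were kept as 2 libraries. Within the shared plate, vitrified 8 h replicate 2 stood apart from the other two in all but one of the 5 genes, and values that it moves by over 1.5 times are also given without it.

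Cyp19a1 rose within 1 h of hCG and had fallen far below its starting level by 4 h, in fresh and vitrified follicles alike in direction. In fresh follicles at 0 h it ranged from 92.6 to 269 CPM, with a median of 198 (n = 18). At 1 h it ranged from 1473 to 2811 CPM, with a median of 2387 (n = 6). Every follicle at 1 h thus lay above every follicle at 0 h, and the mean went from 192 ± 47.7 to 2295 ± 521 CPM (SD), a log2 fold change of 3.58 ± 0.23 (SE; adjusted p = 1.33e-23). At 4 h the gene was at 5.42 to 17.9 CPM, with a median of 10.8 (n = 7), below all follicles of both earlier times. The fall from 1 h was 217-fold, or -7.76 ± 0.40 (SE; adjusted p = 1.51e-28) on the log2 scale. The 4 fresh follicles at 8 h held 0.532, 1.68, 0 and 2.75 CPM, from 3, 13, 0 and 15 counts, and did not overlap those of 4 h. This last step was -2.86 ± 0.48 (SE; adjusted p = 1.5e-06). A count of 0 allows up to 1.46 CPM in the follicle without a count. The call at 8 h rests on few reads and was lost with limma on the deposited log2(TPM + 1), where the step was -0.32 ± 0.25, adjusted p = 0.291. Because 1 is added before the log, changes among low TPM values come out smaller on that scale than in edgeR. The fresh step of Esr1 from 1 h to 4 h, for example, was -0.13 there against -2.45. Each library is a whole follicle, so fewer cells of a type and less RNA per cell cannot be told apart here or for the other genes.

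Vitrified follicles took the same course. Cyp19a1 ranged from 118 to 491 CPM, with a median of 305 at 0 h (n = 15). At 1 h the 5 follicles of the shared plate held 3111, 1877, 1655, 2891 and 1337 CPM, all above 0 h, and those of the vitrified-only plate ranged from 627 to 2072 CPM, with a median of 1373 (n = 9). The step from 0 h to the shared plate at 1 h was 2.87 ± 0.26 (SE; adjusted p = 1.65e-16). By 4 h the gene had dropped to 7.54 to 18.4 CPM, with a median of 10.6 (n = 7), again without overlap, a change of -7.48 ± 0.40 (SE; adjusted p = 1.24e-27). At 8 h the 3 follicles of the shared plate held 0.827, 6.16 and 2.43 CPM, all below those of 4 h, and the step was -1.78 ± 0.47 (SE; adjusted p = 0.00171). It was -2.65 without replicate 2, the highest of the 3, and the call was lost with limma on log2(TPM + 1) (-0.26 ± 0.28, adjusted p = 0.468). The 9 follicles of the vitrified-only plate at 8 h ranged from 0 to 2.3 CPM, with a median of 0.503, with 3 of them at 0. In both kinds of follicle the order of levels was 1 h, 0 h, 4 h and 8 h. The first and the last pair in that order differed by the edgeR test, and the ranges of 0 h and 4 h, which were not tested against each other, did not meet.

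Hsd17b1, unlike Cyp19a1, showed no step at 1 h that passed the test, and then fell. Fresh follicles ranged from 1878 to 2960 CPM, with a median of 2411 at 0 h and from 2294 to 3440 CPM, with a median of 2733 at 1 h. The 2 times overlapped and differed by 0.22 ± 0.30 (SE; adjusted p = 0.592), with a 95% interval of -0.37 to 0.81 on the log2 scale. At 4 h the range was 12.5 to 87.3 CPM, with a median of 48.1, with every follicle far below every earlier one. That step was -5.90 ± 0.43 (SE; adjusted p = 8.3e-20), a 59.7-fold fall. The 4 follicles at 8 h held 21.6, 20.9, 3.9 and 64.6 CPM and overlapped those of 4 h. Their difference of -0.73 ± 0.43 (SE; adjusted p = 0.183) did not pass the test. It became -1.56 ± 0.48, adjusted p = 0.00823 without fresh 8 h replicate 4, the highest, and -0.06 with libraries scaled by their totals alone.

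In vitrified follicles Hsd17b1 stayed between 1448 and 3750 CPM at 0 h and 1 h over all plates. It ranged from 1625 to 3750 CPM, with a median of 2751 at 0 h, and the shared plate at 1 h held 2401, 3248, 3414, 1752 and 2792 CPM, a difference of 0.03 ± 0.33 (SE; adjusted p = 0.949). The 9 follicles of the vitrified-only plate at 1 h ranged from 1448 to 3558 CPM, with a median of 2827. At 4 h the gene was at 19.4 to 103 CPM, with a median of 56.6, with no overlap with 1 h and a step of -5.66 ± 0.43 (SE; adjusted p = 7.9e-19). The shared plate at 8 h held 9.51, 66.8 and 14.9 CPM and the vitrified-only plate ranged from 11.5 to 93.5 CPM, with a median of 23.1. Those of the shared plate overlapped 4 h, and the step was -0.79 ± 0.48 (SE; adjusted p = 0.19). It became -2.06 ± 0.58, adjusted p = 0.00437 without replicate 2, the highest, and -0.17 with libraries scaled by their totals alone. The order of levels was 1 h and 0 h, which did not differ beyond their spread, then, far below and without overlap, 4 h and 8 h, whose difference did not pass the test with all libraries.

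**Figure D1:**
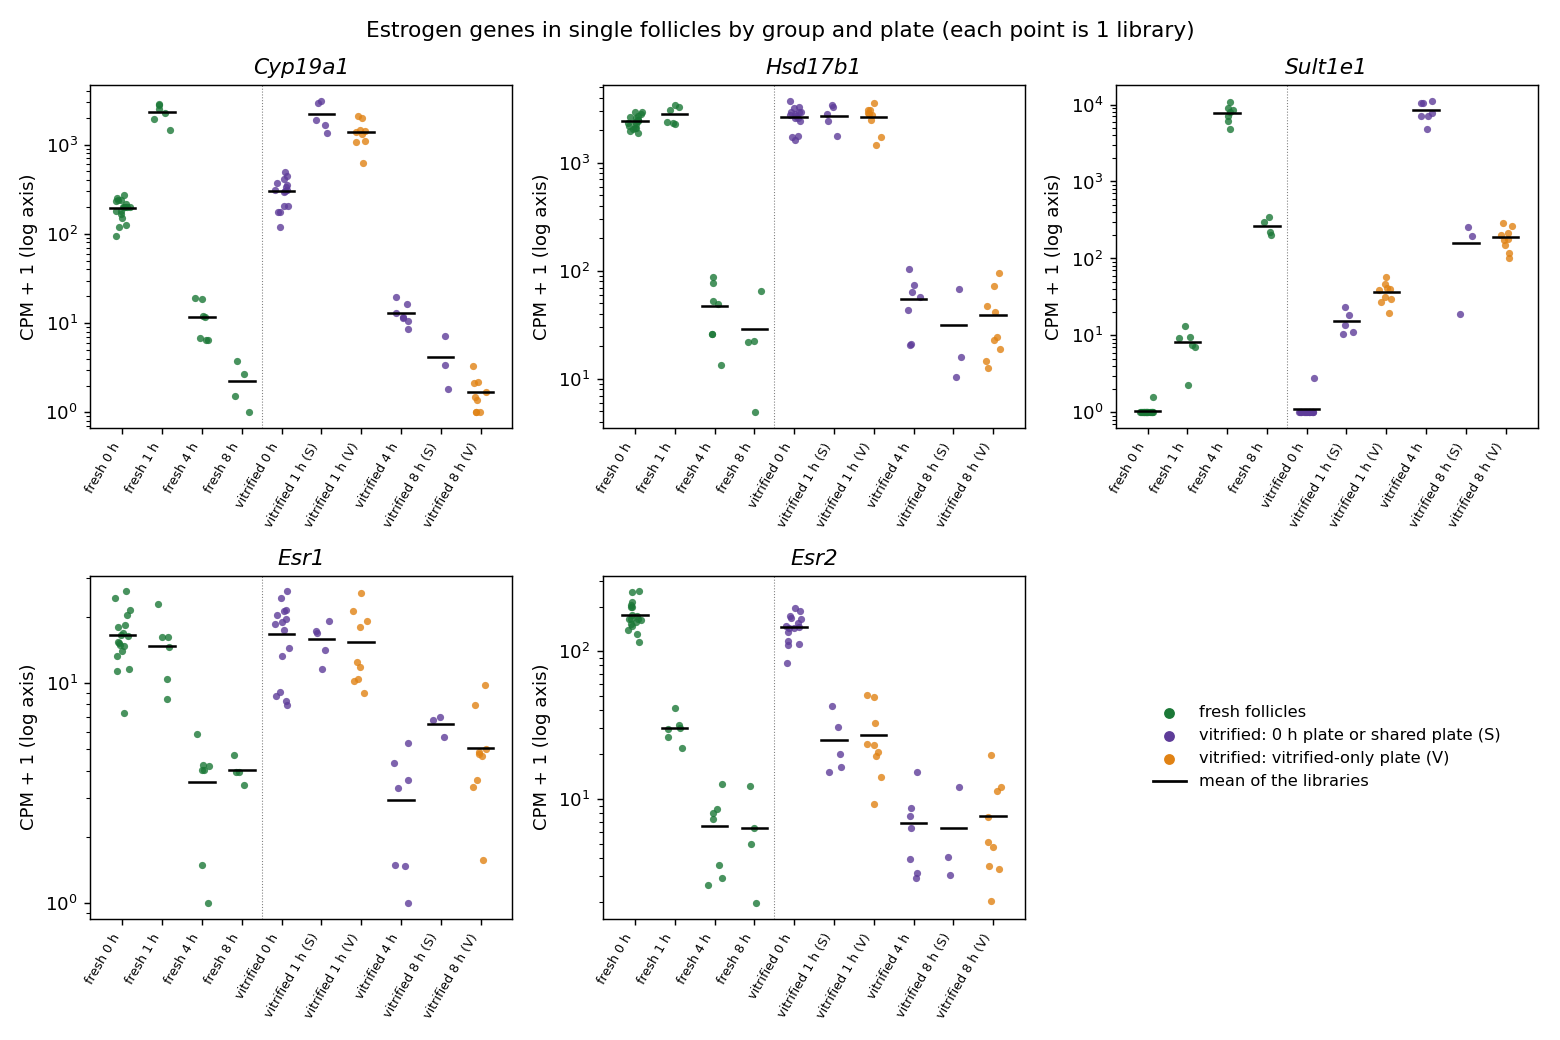
Level of each of the 5 genes in every library, as CPM + 1 on a log axis, by group and plate: green points are fresh follicles, purple vitrified follicles of the 0 h and shared (S) plates, orange those of the vitrified-only (V) plate, and black lines are means. Cyp19a1 and Hsd17b1 are low at 4 h and 8 h, Sult1e1 is high at 4 h in all 14 follicles, and Esr2 but not Esr1 is lower at 1 h than at 0 h.

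Sult1e1 went from near absence to a high level within 4 h, then fell again. At 0 h, 17 of 18 fresh libraries had no count and the other had 1, and 14 of 15 vitrified libraries had none and the other had 2. A count of 0 allows 0.385 to 1.67 CPM in the fresh libraries and 0.546 to 4.35 CPM in the vitrified ones, for counting error only. At 1 h all 6 fresh follicles had counts, from 1.24 to 12.3 CPM, with a median of 7.35. The pooled counts were 1 at 0 h and 90 at 1 h. That is a ratio per total count of 294 with an exact 95% counting interval of 51.4 to 11700. The edgeR fit over all libraries gave an adjusted p of 1.66e-20. Sult1e1 entered that fit through groups where it is high, and did not pass the filter with only these 2 groups. The p-value is therefore not taken as support, and the step is described by its counts. Reads without molecular identifiers are not independent molecules, so such intervals cover counting error only, and the fitted log2 change from so few counts depends on the prior count.

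The rise from 1 h to 4 h in fresh follicles was the largest change between neighbouring times among those of the 5 genes with counts on both sides. At 4 h the range was 4790 to 10720 CPM, with a median of 7953 (n = 7), against at most 12.3 CPM at 1 h. Means went from 7.15 ± 3.61 to 7721 ± 1966 CPM (SD), a log2 fold change of 10.11 ± 0.43 (SE; adjusted p = 1.15e-33) or 1103-fold. At 8 h the 4 follicles held 300, 217, 343 and 204 CPM, all below 4 h and all above 1 h. The fall was 29.1-fold, -4.86 ± 0.40 (SE; adjusted p = 5.14e-17) on the log2 scale.

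Vitrified follicles showed the same rise and fall of Sult1e1. The 5 follicles of the shared plate at 1 h held 10.2, 22.4, 9.45, 12.5 and 17.3 CPM, from 238 counts together against 2 at 0 h. That is a ratio per total count of 193 with an interval of 52.9 to 1600. The edgeR adjusted p of 2.11e-23 is likewise not taken as support, because Sult1e1 passed the filter through groups where it is high. The vitrified-only plate at 1 h ranged from 18.5 to 55.9 CPM, with a median of 37.5. At 4 h the range was 4742 to 11270 CPM, with a median of 7690, above all of 1 h, and the step was 9.19 ± 0.45 (SE; adjusted p = 3.68e-30). By 8 h the shared plate held 195, 18.2 and 258 CPM, where replicate 2 was the low one, and the vitrified-only plate ranged from 99.6 to 288 CPM, with a median of 181. The step on the shared plate was -5.74 ± 0.48 (SE; adjusted p = 1.66e-16). In fresh and vitrified follicles the order of levels was 4 h, 8 h, 1 h and 0 h. The pairs of 4 h with 8 h and of 8 h with 1 h passed the test, and 0 h is placed last by its counts. Vitrified replicate 2 at 8 h on the shared plate lay within the range of 1 h.

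Esr2, the granulosa form of the receptor, fell in each of the first 2 steps. Fresh follicles ranged from 114 to 253 CPM, with a median of 163 at 0 h and from 21 to 40 CPM, with a median of 28.9 at 1 h. The 2 ranges did not meet, and the change was -2.59 ± 0.35 (SE; adjusted p = 2.57e-09), a 6.02-fold fall. At 4 h Esr2 was at 1.63 to 11.6 CPM, with a median of 6.33, below all of 1 h, a step of -2.34 ± 0.41 (SE; adjusted p = 1.71e-06). The 4 follicles at 8 h held 5.32, 3.99, 0.975 and 11.2 CPM and overlapped 4 h, with a difference of -0.01 ± 0.48 (SE; adjusted p = 0.994) and a 95% interval of -0.95 to 0.94. It was -0.62 without fresh 8 h replicate 4, the highest, and 0.65 with libraries scaled by their totals alone.

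Vitrified follicles ranged from 81.7 to 196 CPM, with a median of 145 at 0 h, and the shared plate at 1 h held 15.4, 29.7, 41.3, 14.1 and 19.3 CPM, all lower. Their step was -2.59 ± 0.38 (SE; adjusted p = 2.66e-08). The vitrified-only plate at 1 h ranged from 8.32 to 49.2 CPM, with a median of 22.2, which also lay below every 0 h follicle. At 4 h Esr2 was at 1.94 to 14.2 CPM, with a median of 5.32, which met the lowest values of 1 h, and the step was -2.02 ± 0.42 (SE; adjusted p = 3.89e-05). The shared plate at 8 h held 2.07, 11 and 3.08 CPM and the vitrified-only plate ranged from 1.03 to 18.7 CPM, with a median of 4.13, with a step from 4 h on the shared plate of -0.02 ± 0.52 (SE; adjusted p = 0.98). Without vitrified 8 h replicate 2, the highest of the 3, that step was -1.07 ± 0.65, adjusted p = 0.221. The order was 0 h, 1 h, then 4 h and 8 h, a pair that overlapped and whose difference did not pass the test in either kind of follicle. The processed pseudogene Gm7862 overlaps Esr2 on the same strand and has a row of its own in the table, so the counting could divide reads between the 2. The other 4 genes overlap no annotated gene.

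Esr1 was low throughout and fell once, between 1 h and 4 h. Fresh follicles ranged from 6.31 to 25.1 CPM, with a median of 14.9 at 0 h and from 7.5 to 21.9 CPM, with a median of 14.3 at 1 h, 2 overlapping ranges that differed by -0.15 ± 0.28 (SE; adjusted p = 0.696). At 4 h it was at 0 to 4.88 CPM, with a median of 3.03, with 1 follicle at 0, where a count of 0 allows up to 1.58 CPM. All follicles of 4 h lay below those of 1 h, and the step was -2.45 ± 0.40 (SE; adjusted p = 2.03e-07). At 8 h the 4 follicles held 3.73, 2.45, 2.92 and 2.94 CPM, within the range of 4 h, and the difference was 0.25 ± 0.47 (SE; adjusted p = 0.709). These values rest on 34 counts over 7 libraries at 4 h and 62 over 4 at 8 h.

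In vitrified follicles Esr1 ranged from 6.93 to 25.1 CPM, with a median of 17.5 at 0 h, and the shared plate at 1 h held 13.2, 10.6, 15.9, 16.1 and 18.2 CPM, a difference of -0.08 ± 0.30 (SE; adjusted p = 0.845). The vitrified-only plate at 1 h ranged from 7.99 to 24.6 CPM, with a median of 11.4. At 4 h it was at 0 to 4.31 CPM, with a median of 2.33, below all of 1 h, and the step was -2.91 ± 0.41 (SE; adjusted p = 5.26e-09). The shared plate at 8 h held 5.79, 6.03 and 4.7 CPM, all above 4 h, and the rise of 1.48 ± 0.48 (SE; adjusted p = 0.0102) passed the test. That call was lost when only the compared libraries were fitted (1.48 ± 0.61, adjusted p = 0.063) and with limma on log2(TPM + 1), and the 9 follicles of the vitrified-only plate ranged from 0.574 to 8.8 CPM, with a median of 3.75. The order was 0 h and 1 h, which overlapped, then 8 h and 4 h, a pair that was called apart in vitrified but not in fresh follicles, and the difference between these 2 steps did not pass its own test (1.23 ± 0.68 (SE; adjusted p = 0.649)).

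Markers of theca and stroma, where Esr1 is mainly expressed, were lower at 4 h than at 1 h by their median sum, as Esr1 was. The 14 markers summed to a median of 1730 CPM (709 to 3020) in fresh follicles at 1 h, 694 CPM (203 to 1930) at 4 h and 223 CPM (126 to 447) at 8 h. In the vitrified follicles of the shared plate the medians were 1130 CPM (766 to 2240) at 1 h, 347 CPM (181 to 963) at 4 h and 327 CPM (222 to 730) at 8 h. From 4 h to 8 h the median sum in fresh follicles was lower, with overlapping ranges, and the step of Esr1 did not pass the test. In vitrified follicles Esr1 was called higher and the sums overlapped. The median log2 fold change over the 14 markers at this step was -0.6 in fresh and 0.67 in vitrified follicles. Over all genes it was 0.12 and 0.17. Of the 14 tested, 5 fell in fresh and 3 in vitrified follicles from 1 h to 4 h, when 2917 and 3076 of all 11889 genes fell, and Col1a1, Col1a2, Col3a1, Dcn and Acta2 had counts in all 83 libraries. The part of theca and stroma content in the Esr1 result was not tested.

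Granulosa markers did not follow 1 course beside Cyp19a1, Hsd17b1 and Esr2. Their sum, most of which is Inha and Inhba, had a median of 68600 CPM (59100 to 86900) in fresh follicles at 1 h and 65600 CPM (48100 to 76200) at 4 h, ranges that overlap, at a step where Cyp19a1 and Hsd17b1 fell 217-fold and 59.7-fold. It had dropped to 14300 CPM (13300 to 18200) at 8 h. In vitrified follicles the medians were 95900 CPM (73800 to 101000) at 1 h on the shared plate, 70000 CPM (50900 to 80600) at 4 h and 16500 CPM (15300 to 18100) at 8 h. Of 11 granulosa markers tested, 7 fell in fresh and 8 in vitrified follicles from 1 h to 4 h, when 2917 and 3076 of all 11889 genes fell. Their median log2 fold changes were -2.75 and -3.78, against -0.03 and -0.11 over all genes, a fall that the sum does not show. The part of granulosa content in the results was not tested.

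Between genes, levels were compared as CPM per kilobase of exons. Exon length is the union of all annotated exons of a gene, 13.7 kb for Esr1 and 3.37 kb for Esr2. Which transcripts were present is not known, so the size of ratios between genes depends on this choice. The deposited TPM was not used for this, because its ratio to CPM followed the genomic span of genes, introns included (r = 0.999 across 4835 genes), and not exon length (r = 0.794), which makes long genes such as Esr1, spanning 394022 bp with 13.7 kb of exons, appear lower. At 0 h fresh follicles held 1798 ± 246 CPM per kb of Hsd17b1 (SD, n = 18), 52 ± 11.3 of Esr2, 42.4 ± 10.5 of Cyp19a1 and 1.13 ± 0.336 of Esr1. Transcripts of Hsd17b1 thus exceeded those of Cyp19a1 in every follicle, by a median ratio of 43.5 (range 31.7 to 76.8). At 1 h that ratio had narrowed to 4.1 (range 3.39 to 5.47), as Cyp19a1 rose and the step of Hsd17b1 did not pass the test. In vitrified follicles it was 32 (range 16.6 to 53.8) at 0 h and 5.84 (range 2.05 to 7.05) at 1 h on the shared plate.

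The balance of transcripts for inactivation and synthesis inverted between 1 h and 4 h. Per kilobase, Sult1e1 stood at a median of 0.0105 (range 0.00198 to 0.0303) times the level of Cyp19a1 in fresh follicles at 1 h and 2640 (range 1230 to 6730) times at 4 h. On the vitrified side the medians were 0.0208 (range 0.0119 to 0.0472) at 1 h on the shared plate, 0.0801 (range 0.0459 to 0.229) on the vitrified-only plate and 2640 (range 937 to 5120) at 4 h. Over both kinds and plates the ratio was at most 0.229 at 1 h and at least 937 at 4 h. At 8 h the ratio could be formed in 3 of 4 fresh follicles, where the median was 472 (range 269 to 2050), because Cyp19a1 was at 0 in the fourth. Of the receptors, Esr2 exceeded Esr1 per kilobase by a median of 42.2 (range 22.4 to 111) in fresh follicles at 0 h and 9.86 (range 5.36 to 13.6) at 1 h. The same 2 values were 35.7 (range 16.5 to 103) and 4.73 (range 3.55 to 11.4) in vitrified follicles, so that the receptor ratio had narrowed by 1 h without overlap between times in either kind.

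**Figure D2:**
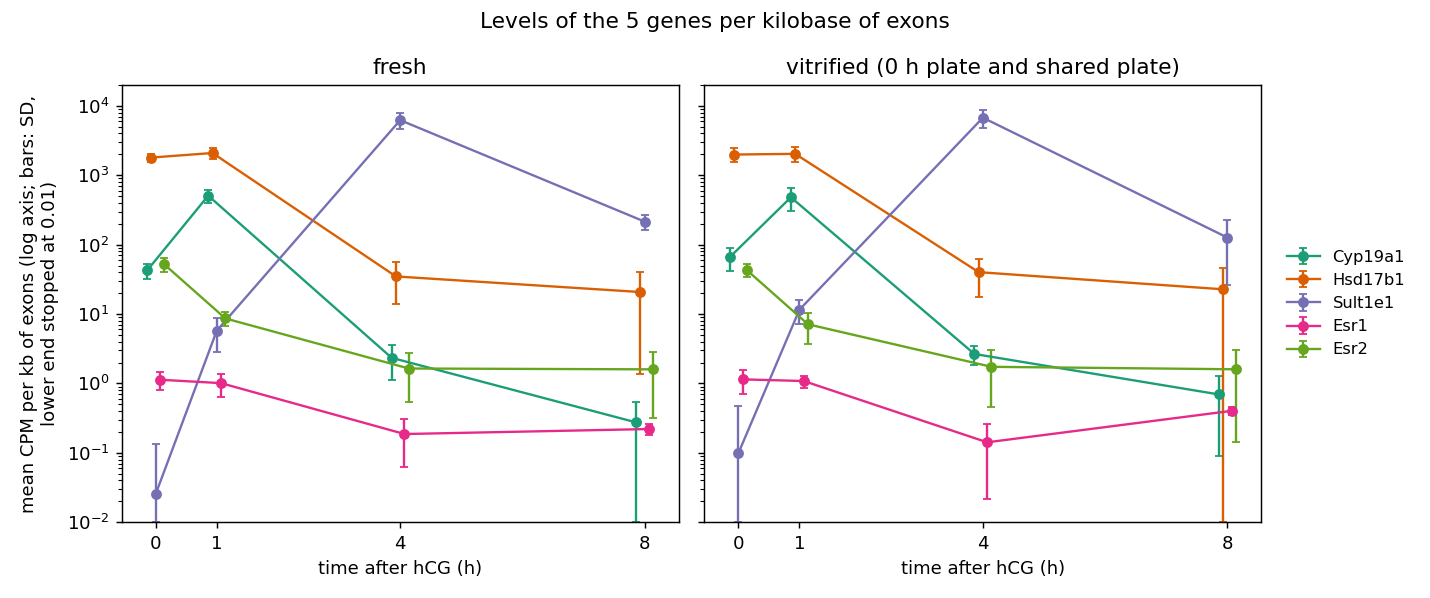
Mean level per kilobase of exons (log axis; bars are SD over libraries, cut at 0.01 below) against time after hCG in fresh (left) and vitrified follicles of the 0 h and shared plates (right). Hsd17b1 is the highest of the 5 at 0 h and 1 h and Sult1e1 at 4 h and 8 h in both panels.

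Counted over the 5 genes, most steps were shared by fresh and vitrified follicles, as the plot of steps shows. From 0 h to 1 h, 2 rose and 1 fell in fresh follicles, where 42.1% of all genes tested were called, and the same counts held in vitrified follicles, where 43.5% were. Sult1e1 is among those that rose in each, and its p-value at this step is not taken as support. From 1 h to 4 h, 1 rose and 4 fell in each, against 46.4% of all genes called in fresh and 46.5% in vitrified follicles. From 4 h to 8 h, 2 fell in fresh follicles (36.5% of all genes called), and 2 fell and 1 rose in vitrified ones (37.1%). With 36.5% to 46.5% of all genes called at each step, being called is not in itself a result about these genes, and they are described by the size and direction of their changes. The steps of the 2 kinds of follicle were then compared directly. The difference of the 0 h to 1 h steps passed the edgeR test for 0 of 5 genes (0.16% of all genes), that of the 1 h to 4 h steps for 0 (0.0421%) and that of the 4 h to 8 h steps for 0 (0.993%). At an unadjusted p under 0.05 the counts were 0, 1 and 0, DESeq2 called 0 in each, and limma on log2(TPM + 1) called 0, 0 and 1. Without vitrified 8 h replicate 2 the difference of the 4 h to 8 h steps went from 1.07 to 0.19 for Cyp19a1, from -0.07 to -1.35 for Hsd17b1 and from -0.02 to -1.08 for Esr2, and none was called.

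**Figure D3:**
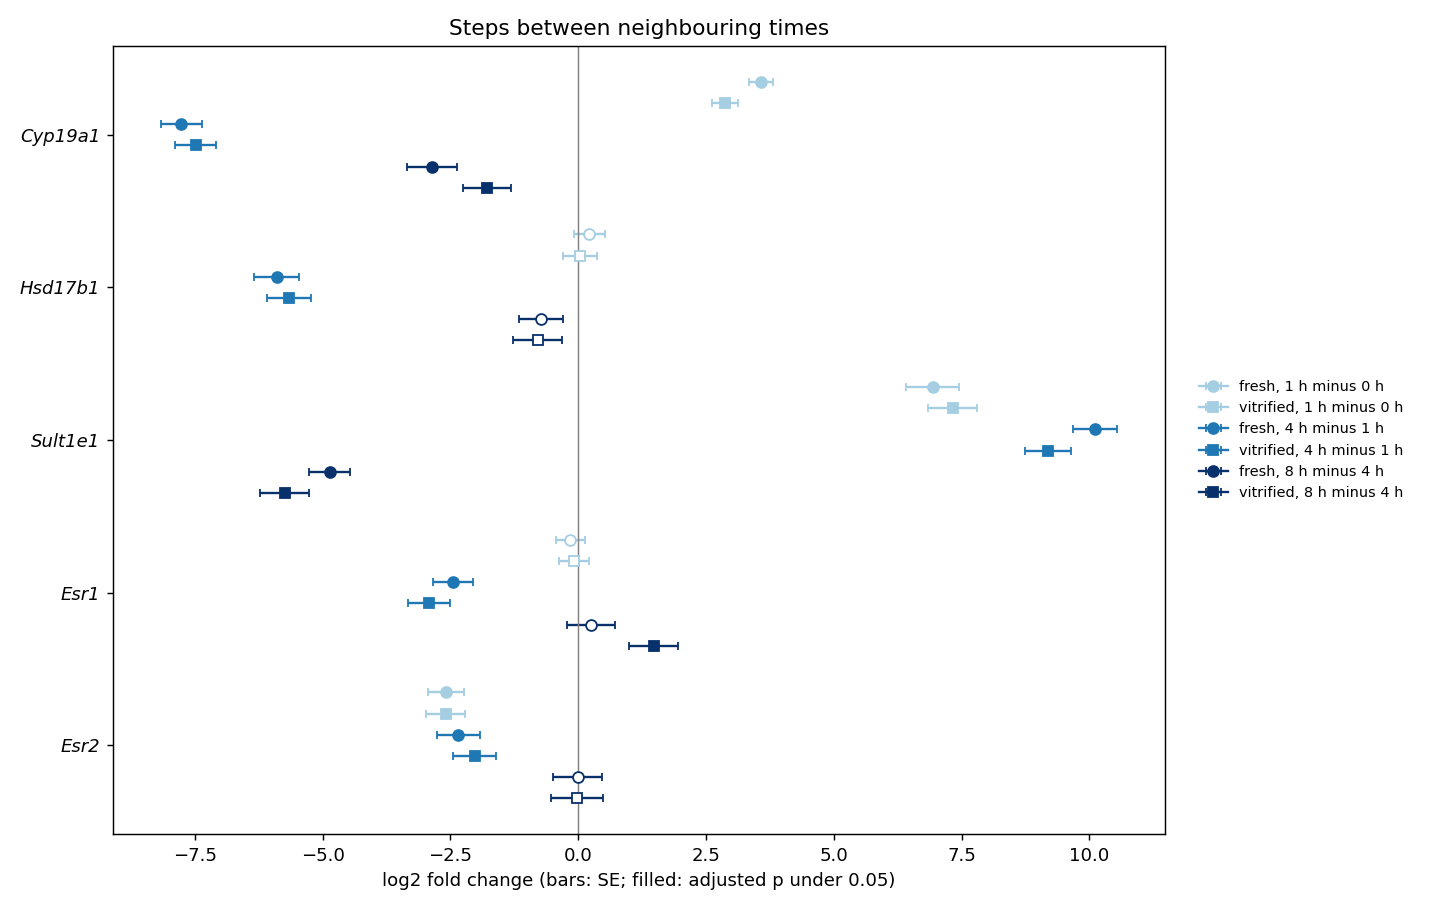
Log2 fold changes of the 5 genes between neighbouring times in fresh (circles) and vitrified follicles (squares, 0 h and shared plates), with SE as bars and filled symbols where the adjusted p was under 0.05. The 1 h to 4 h step is filled for all 5 genes in both kinds of follicle, and the 4 h to 8 h step is filled for Cyp19a1 and Sult1e1 in both and for Esr1 in vitrified follicles. The size of the Sult1e1 step from 0 h to 1 h depends on the prior count, and its p-value is not taken as support.

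Compared across the 0 h and shared plates, the 4 other genes were lower and Sult1e1 higher at 8 h than at 0 h. These changes cannot be told apart from an effect of plate. All 5 were called in fresh follicles, where 51.4% of all genes were, and all 5 in vitrified follicles of the shared plate (48.4%). These calls include Sult1e1, which at 0 h had 1 count over all fresh libraries and 2 over all vitrified ones. Cyp19a1 changed by -7.04 ± 0.52 (SE; adjusted p = 9.61e-21) in fresh and -6.40 ± 0.55 (SE; adjusted p = 5.37e-17) in vitrified follicles. Hsd17b1 changed by -6.41 ± 0.56 and -6.42 ± 0.64, Esr2 by -4.94 ± 0.50 and -4.64 ± 0.56, and Esr1 by -2.35 ± 0.39 and -1.51 ± 0.41. Without vitrified 8 h replicate 2 the vitrified values were 11.38 for Sult1e1 (from 10.77, a size that depends on the prior count), -7.19 for Cyp19a1, -7.62 for Hsd17b1 and -5.61 for Esr2. Without fresh 8 h replicate 4 the fresh values were -7.25 for Hsd17b1 and -5.56 for Esr2.

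The vitrified-only plate gave another set of follicles for the change between 1 h and 8 h. On that plate all 5 genes were called, 1 higher and 4 lower (59.4% of all genes called), as they were among vitrified follicles of the shared plate (50.1%) and among fresh follicles (49.8%). Cyp19a1 changed by -10.93 ± 0.42 (SE; adjusted p = 2.11e-37) there, -9.27 ± 0.64 on the shared plate and -10.62 ± 0.60 in fresh follicles. Sult1e1 was 2.39 ± 0.26, 3.45 ± 0.38 and 5.25 ± 0.38 in the same order, the smallest on the vitrified-only plate, whose follicles had the highest Sult1e1 at 1 h. For Hsd17b1 the 3 values were -6.12 ± 0.38, -6.45 ± 0.66 and -6.63 ± 0.58, and for Esr2 -1.91 ± 0.33, -2.04 ± 0.53 and -2.35 ± 0.47. Esr1 changed by -1.79 ± 0.30, -1.43 ± 0.45 and -2.20 ± 0.43. On the shared plate its call was lost without vitrified 8 h replicate 3 (adjusted p = 0.0504) and when libraries were scaled by their totals alone (-0.69 ± 0.48, adjusted p = 0.218). Without vitrified 8 h replicate 2, values on that plate were -10.10 for Cyp19a1, -7.70 for Hsd17b1, 4.05 for Sult1e1 and -3.07 for Esr2. Without fresh 8 h replicate 4 the fresh values were -7.46 for Hsd17b1 and -2.96 for Esr2.

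Vitrified and fresh follicles of the same time and plate differed in none of the 5 genes by the edgeR test. At 0 h, 0 of 5 were called, against 0.959% of all genes, and the counts were likewise 0 at 1 h (0.555%), 4 h (0.118%) and 8 h (2.06%). At an unadjusted p under 0.05, 1 gene at 0 h, 1 at 1 h, 0 at 4 h and 1 at 8 h passed. DESeq2 called 1 at 0 h and 0 at the later times, and limma called 1 at 0 h, 0 at 1 h and 4 h, and 1 at 8 h.

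At 0 h the gene that passed without adjustment, and with DESeq2, was Cyp19a1, while limma on log2(TPM + 1) called Esr2 instead (-0.50 ± 0.13, adjusted p = 0.00915), lower in vitrified follicles. The mean of Cyp19a1 at 0 h was 299 ± 107 CPM (SD, n = 15) in vitrified against 192 ± 47.7 CPM (SD, n = 18) in fresh follicles, with wide overlap between the ranges given above. The difference was 0.64 ± 0.19 (SE; adjusted p = 0.0877), with a 95% interval of 0.27 to 1.01. It passed the test with DESeq2 (adjusted p = 0.022) and when only the 33 libraries of 0 h were fitted in edgeR (adjusted p = 0.0197). Of 13 genes known to control Cyp19a1, 1 was called at the same time. This was Fshr, the FSH receptor, higher in vitrified follicles by 0.95 ± 0.21 on the log2 scale. Of 11 granulosa markers tested, 2 were called higher, Fshr again and Inha, at 0.39 ± 0.09. Of 9 genes of androgen and estrogen synthesis, Star was called, higher by 2.13 ± 0.36 (edgeR, adjusted p = 0.000118). Of 12 tested genes known to respond to estrogen, Myc was called, lower at -0.96 ± 0.23. Of the 14 theca and stroma markers, Lum was called, lower at -1.54 ± 0.41, with a median of -0.77 over the list. At 1 h on the shared plate Cyp19a1 stood at 2174 ± 783 CPM (SD, n = 5) in vitrified against 2295 ± 521 CPM (SD, n = 6) in fresh follicles, a difference of -0.08 ± 0.33 (SE; adjusted p = 0.969) with a 95% interval of -0.72 to 0.57. Among the listed genes, Prkar2b, of those that control Cyp19a1, was called higher in vitrified follicles there by 2.13 ± 0.52. Its vitrified mean was 2250 ± 3110 CPM (SD, n = 5), a wide spread. Fst, a granulosa marker, was called higher by 2.525 ± 0.608.

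At 1 h the gene with the smallest p was Sult1e1. Its mean was 14.4 ± 5.43 CPM (SD, n = 5) in vitrified and 7.15 ± 3.61 CPM (SD, n = 6) in fresh follicles, whose ranges overlap, a difference of 1.03 ± 0.36 (SE; adjusted p = 0.221). The call depended on how plates were treated: with 1 additive term for the vitrified-only plate the difference was 1.38 ± 0.35, adjusted p = 0.0419, and with plates ignored it was 1.98 ± 0.35, adjusted p = 0.000326. At 8 h the ranges of Esr1 did not overlap, with all 3 vitrified follicles higher, and the difference was 0.86 ± 0.48 (SE; adjusted p = 0.527). Cyp19a1 was the gene that passed there without adjustment, at 1.27 ± 0.55 (SE; adjusted p = 0.312), and its difference was 0.39 without vitrified replicate 2. Hsd17b1 and Esr2 differed by 0.13 ± 0.51 and 0.02 ± 0.53 at 8 h. Without vitrified replicate 2 these values were -1.16 and -1.05, and without fresh replicate 4 they were 0.95 and 0.62, none of them called. For Sult1e1 the ranges overlapped, and its difference of -0.76 ± 0.39 (SE; adjusted p = 0.458) was called by limma on log2(TPM + 1), at -1.46 ± 0.34, adjusted p = 0.00301. At 4 h the 95% intervals on the log2 scale were -0.48 to 0.88 for Cyp19a1, -0.51 to 0.91 for Hsd17b1, -0.41 to 0.64 for Sult1e1, -1.31 to 0.57 for Esr1 and -0.83 to 0.91 for Esr2, and differences within these bounds are not excluded.

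**Figure D4:**
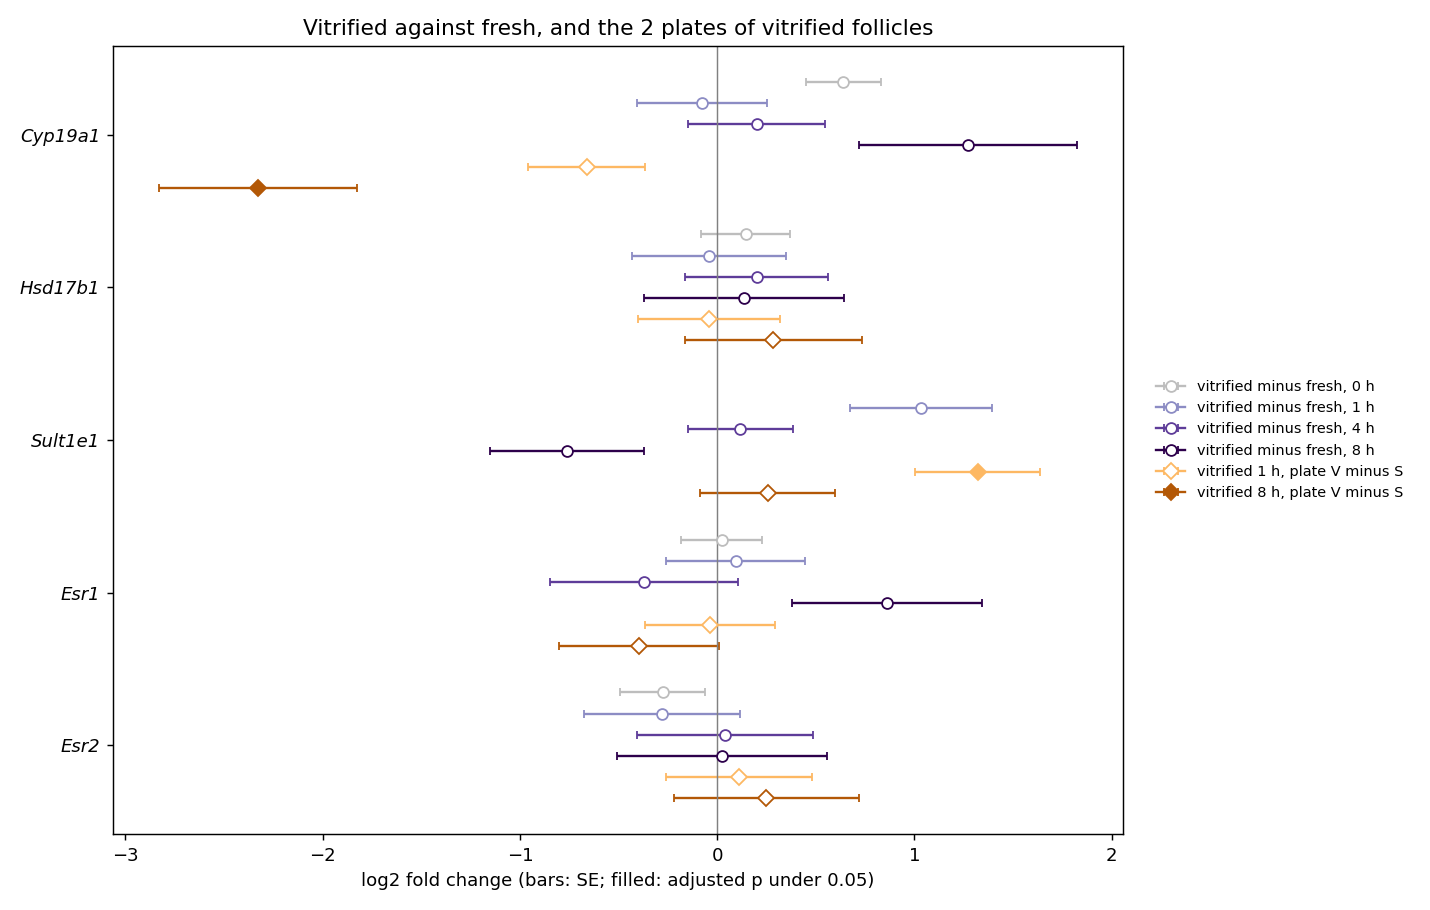
Log2 fold changes of the 5 genes, vitrified minus fresh at each time within the 0 h or shared plate (circles), and vitrified-only minus shared plate among vitrified follicles at 1 h and 8 h (diamonds), with SE as bars and filled symbols where the adjusted p was under 0.05. Sult1e1 is not drawn at 0 h, where nearly all libraries were at 0. The filled symbols are Sult1e1 between plates at 1 h and Cyp19a1 between plates at 8 h, where the p-value of Cyp19a1 is not taken as support.

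Between plates, 2 of the 5 genes were called apart in vitrified follicles of the same time, Sult1e1 at 1 h and Cyp19a1 at 8 h. At 1 h, Sult1e1 was higher on the vitrified-only plate, 35.9 ± 11.2 CPM (SD, n = 9) against 14.4 ± 5.43 CPM (SD, n = 5), with overlapping ranges and a difference of 1.32 ± 0.32 (SE; adjusted p = 0.0159). It was the only one of the 5 called, against 1.37% of all genes, and the call was lost without vitrified 1 h replicate 1 (adjusted p = 0.0573) or replicate 4 (0.0781). It was also lost with only the compared libraries fitted (1.37 ± 0.28, adjusted p = 0.057) and with limma on log2(TPM + 1) (adjusted p = 0.0537). At 8 h the mean of Cyp19a1 was lower on the vitrified-only plate, 0.687 ± 0.758 CPM (SD, n = 9) against 3.14 ± 2.73 CPM (SD, n = 3), with overlapping ranges. The edgeR difference was -2.33 ± 0.50 (SE; adjusted p = 0.000306), also 1 call of 5, against 23.4% of all genes. Cyp19a1 entered that fit through groups where it is high, and did not pass the filter with only these 2 groups. This p-value is therefore not taken as support. Without vitrified 8 h replicate 2 the difference of Cyp19a1 was -1.43 ± 0.65, adjusted p = 0.115, and Hsd17b1 was then called higher on the vitrified-only plate (1.59 ± 0.56, adjusted p = 0.0351). Esr2, not called, went from 0.25 ± 0.47 to 1.33 without it. Other ways in which the plates differ are not given in the sources used here.

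Genes of androgen and estrogen synthesis other than the members took no single course. Of 9 genes of androgen and estrogen synthesis, 5 rose and none fell in fresh follicles from 0 h to 1 h, with a median log2 fold change of 1.19 against -0.11 over all genes. Star, which carries cholesterol into mitochondria, changed by 10.36 ± 0.48, Por, the reductase that feeds electrons to aromatase and other P450 enzymes, by 2.49 ± 0.18, and Cyp11a1, which makes pregnenolone, by 2.11 ± 0.50. Hsd3b1, which turns pregnenolone into progesterone, stood at a mean of 25200 CPM at 0 h and 24700 CPM at 1 h. From 1 h to 4 h, 4 fell and 1 rose. Srd5a1, the 5α-reductase that diverts androgens from aromatase, changed by -6.09 ± 0.74, Cyp17a1, the theca enzyme that makes androgens, by -3.06 ± 0.89, and Hsd17b7, another reductase of estrone, by -2.19 ± 0.29. Srd5a1 was at a mean of 0.0541 CPM at 4 h, so few counts that its fitted changes depend on the prior count. From 4 h to 8 h, 2 rose and 2 fell, with Srd5a1 at 5.38 ± 0.80 and Akr1c18, which breaks down progesterone, at 4.50 ± 1.10. Akr1c18 went from a mean of 0.123 to 4.29 ± 3.39 CPM (SD, n = 4), so its fitted change also depends on the prior count. Its vitrified means at 8 h were 8.5 ± 12.3 CPM on the shared plate (SD, n = 3) and 0.299 ± 0.354 CPM on the vitrified-only plate (SD, n = 9). In vitrified follicles the same 3 steps gave 5 higher and 1 lower, 2 higher and 4 lower, and 2 higher and 2 lower.

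Genes known to control Cyp19a1 mostly fell between 1 h and 4 h, with it. Of 13 tested, 10 fell and 2 rose in fresh follicles at that step and 9 fell and 2 rose in vitrified ones, with medians of -2.75 and -2.29 against -0.03 and -0.11 over all genes. Fshr changed by -6.91 ± 0.51 in fresh follicles, Nr5a2, a nuclear receptor of granulosa cells, by -4.41 ± 0.20, and Lhcgr, the receptor of hCG itself, by -4.15 ± 0.61. From 0 h to 1 h, when Cyp19a1 rose, 2 of the 13 rose and 5 fell. Crem, whose short form represses cyclic AMP targets, changed by 8.37 ± 0.24, while Foxl2 and Nr5a1, transcription factors of granulosa and steroid-making cells, changed by -3.24 ± 0.38 and -2.36 ± 0.19. From 4 h to 8 h Fshr changed by 5.24 ± 0.54 and Crem by -3.52 ± 0.37, at a step where Cyp19a1 fell further. Fshr, Foxl2 and Nr5a2 are also among the granulosa markers, and Cyp17a1 among those of theca.

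Other genes of estrogen inactivation took a course unlike that of Sult1e1. Of 12 on the list, 7 could be tested, and from 1 h to 4 h, when Sult1e1 rose 1103-fold, 3 fell in fresh and 3 in vitrified follicles. They included Papss1 and Papss2, which make the sulfate donor that sulfotransferases use, at -1.42 ± 0.21 and -2.20 ± 0.31 in fresh follicles, and Cyp1b1, which hydroxylates estrogens, at -3.40 ± 0.53. From 4 h to 8 h, 6 of 7 rose in fresh and 5 in vitrified follicles, with medians of 1.36 and 1.51 against 0.12 and 0.17 over all genes. Bpnt1, which clears the by-product of sulfation, changed by 2.32 ± 0.54 in fresh follicles and 1.74 ± 0.60 in vitrified ones, and Hsd17b4, which oxidises estradiol, by 2.14 ± 0.25 in fresh follicles.

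Beside the receptors, 8 of 12 cofactors and related receptors could be tested. From 0 h to 1 h, 3 fell in fresh and 4 in vitrified follicles, when 2748 and 2621 of all 11889 genes fell. The list medians were -0.43 in each, against -0.11 and -0.05 over all genes. The coactivator Ncoa1 was among those of the list that fell, at -1.53 ± 0.35 and -1.52 ± 0.35. From 1 h to 4 h, 4 rose and 3 fell in fresh follicles, when 2604 of all 11889 genes rose and 2917 fell. The list median was 0.12, against -0.03 over all genes. Nrip1, a corepressor, changed by -2.43 ± 0.35 and Ep300, a histone acetyltransferase, by 1.67 ± 0.16.

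Among genes known to respond to estrogen, more fell than rose from 1 h to 4 h. Of 12 tested, 7 fell and 2 rose in fresh follicles from 1 h to 4 h and 8 fell and 2 rose in vitrified ones, with medians of -0.88 and -1.08 against -0.03 and -0.11 over all genes. Nppc, which encodes the peptide that holds the oocyte in meiotic arrest, changed by -6.03 ± 0.46 in fresh follicles, its receptor gene Npr2 by -2.98 ± 0.25 and Greb1, a receptor cofactor, by -2.98 ± 0.41. From 4 h to 8 h, 6 fell and 1 rose in fresh follicles and 4 fell and 1 rose in vitrified ones, with medians of -1.22 and -0.29. In fresh follicles Pgr, the progesterone receptor, changed by -9.34 ± 0.73 and Gja1, a gap junction protein, by -3.44 ± 0.30. From 0 h to 1 h, 5 of the 12 rose and 1 fell in fresh follicles, with a median of 0.12 and with Pgr at 9.24 ± 0.38 and Rara, a retinoic acid receptor, at -3.11 ± 0.22. Several of these genes also respond to hCG by other routes, and the part of estrogen was not tested.

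The genes whose pattern was most like each of the 5 were taken by Pearson's r of log2(CPM + 1) over the 10 means of group and plate. Such correlations describe points that share plates and times and carry no test. Nearest to Cyp19a1 were Oxtr (r = 0.995), Jun (0.995) and Mycn (0.993). Oxtr, the oxytocin receptor, went from a mean of 16.6 CPM at 0 h to 69.5, 2.71 and 0.597 CPM at 1, 4 and 8 h in fresh follicles, a like course. Nearest to Hsd17b1 were Mctp1 (0.996), Myo1e (0.995) and Inhbb (0.994 by the same measure). Inhbb, a subunit of inhibin B and activin B, stood at 303 and 196 CPM at 0 h and 1 h and at 1.93 and 0.904 CPM at 4 h and 8 h in fresh follicles. Psat1 (0.996), Tead1 (0.989) and Msc (0.986) were nearest to Sult1e1. Psat1, an enzyme of serine synthesis, went from 3.54 CPM at 0 h to 9.3, 399 and 45.2 CPM at 1, 4 and 8 h, a rise and fall by smaller folds. Esr1 was nearest to Ndufb5 (0.992), Il11ra1 (0.990) and Cyfip2 (0.989), and Esr2 to Smim10l2a (0.992), Paqr8 (0.989) and Fam81a (0.988). Among the 5 themselves over the same 10 means, Cyp19a1 and Hsd17b1 were most alike (r = 0.955) and Sult1e1 and Esr1 most opposed (r = -0.927).

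Within single groups, follicles with more of 1 gene seldom had more of another by a margin that passed the test. Pairs of genes were compared over follicles of the same group and plate where at least 9 were at hand and both genes had a median of 10 counts or more, a minimum set after the values were seen, which gave 28 pairs. One passed after Benjamini-Hochberg adjustment. Hsd17b1 and Esr2 were correlated over the 9 vitrified follicles of 8 h on the vitrified-only plate, with Pearson's r = 0.919 (exact permutation test, two-sided, p = 0.000667, adjusted p = 0.0187) and r = 0.835 without the 2 follicles farthest from the median of Hsd17b1. Spearman's rho was 0.867 (exact permutation test, p = 0.00451, adjusted p = 0.126), which did not pass. All 9 came from 1 plate row. Both genes also correlated with the total count, with r = 0.471 and 0.508, and the part of depth was not tested. The follicles with the most Hsd17b1, replicates 5 and 6, held 71.0 and 93.5 CPM of it and 10.4 and 18.7 CPM of Esr2, and that with the least, replicate 9, held 11.5 and 2.37 CPM. Elsewhere Hsd17b1 and Esr2 did not pass the permutation test. Their r was 0.35 in fresh follicles at 0 h (adjusted p = 0.43) and 0.259 in vitrified ones at 0 h (adjusted p = 0.579). In vitrified follicles of 1 h on the vitrified-only plate it was 0.581 (adjusted p = 0.353). In fresh follicles at 0 h, Cyp19a1 and Hsd17b1 correlated with r = 0.453 over 18 follicles (permutation test, p = 0.06, adjusted p = 0.28; rho = 0.368, adjusted p = 0.493), and r was 0.37 without the 2 farthest. These follicles lay in 2 plate rows, within which r was 0.248 and 0.732. For the same pair r was 0.65 over 15 vitrified follicles at 0 h (permutation test, p = 0.00931, adjusted p = 0.0869; rho = 0.364, adjusted p = 0.493) and 0.368 without the 2 farthest. Over the 9 vitrified follicles of 1 h on the vitrified-only plate r was 0.768 (exact permutation test, p = 0.0157, adjusted p = 0.11; rho = 0.583, adjusted p = 0.493) and 0.546 without the 2 farthest.

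In fresh follicles, Cyp19a1, Hsd17b1 and Esr2 varied more between follicles at 4 h and 8 h than before. The coefficient of variation of Cyp19a1 was 24.9%, 22.7%, 51.4% and 99% at 0, 1, 4 and 8 h. The coefficient of variation of Hsd17b1 was 13.7% in fresh follicles at 0 h and 19% at 1 h, and 60.1% and 93.3% at 4 h and 8 h, where its mean was far lower. For Esr2 the 4 values were 21.8%, 21.9%, 66.6% and 79.8%. Sult1e1 in fresh follicles went the other way, from 50.5% at 1 h to 25.5% at 4 h and 25.2% at 8 h. In vitrified follicles of the 0 h and shared plates Cyp19a1 had 35.9%, 36%, 30.7% and 87.2%, Hsd17b1 22.3%, 24.7%, 55.7% and 104%, and Esr2 21.2%, 47.9%, 74% and 90.9% at the same times. Sult1e1 there had 37.8%, 28.7% and 79.1% at 1, 4 and 8 h, the last with the low replicate 2. At low counts part of such variation is counting error, and that part was not tested.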

How the data were processed

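RNA of single mouse follicles was sequenced from Smart-Seq2 cDNA and Nextera XT libraries, per the labels' protocols. The authors deposited a table of estimated counts (17.2% of values are not whole) and a table of log2(TPM + 1). Per the submitters' processing notes, which give neither roles nor versions, Partek, HISAT2, Bowtie2, DESeq2 and the mm10 build were used. The estimated counts were rounded and fitted with edgeR 4.0.16 (R 4.3.3, TMM scaling, robust quasi-likelihood test, filterByExpr with a minimum count of 10) over 83 libraries as 10 means of group and plate. P-values were adjusted by Benjamini-Hochberg over 11889 genes in each comparison and called under 0.05. Fold changes carry SE and 95% intervals. DESeq2 1.42.0 and limma 3.58.1 were alternatives, and correlations used scipy 1.17.1.

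Named genes were the 5 genes, up to 3 called genes with the largest change from each pathway list per comparison described, and the 3 genes nearest each member in pattern (pseudocount 1 CPM). Members and lists were chosen with earlier results of these data known. Gene models and exon lengths are from GENCODE vM21 (GRCm38). On simulated data, an edgeR fit of only the 2 compared groups was tried for fresh and vitrified follicles of the shared plate. At 1 h it called 29% of genes changed 2-fold (log2 of 1) and 82% of those changed by 2 on the log2 scale (7275 genes simulated). At 8 h these were 5% and 69% (9800 genes). The fit over 83 libraries used for the results was not simulated, so these rates do not describe it. Alternatives left out single libraries of small groups, dropped TMM or the filter, and treated plates otherwise.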

Additional observations from a re-analysis of the deposited data

How the results depend on the processing

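Of 1230 values of the 5 genes under alternatives, 1202 kept their direction and side of the threshold, 16 lost a call, 11 gained one and 1 changed sign: the difference of the 4 h to 8 h steps of Cyp19a1, at -0.16 without plate division against 1.07. Among the 1202 are 88 sign changes of values uncalled in both fits and within 1 SE of 0, a rule set after the values were seen. Beyond calls named above, limma on log2(TPM + 1) also lost Esr1 in vitrified follicles from 0 h to 8 h and from 1 h to 8 h on both plates, Esr2 from 1 h to 8 h on the shared plate, and Cyp19a1 between plates at 8 h, and called Sult1e1 there and in the difference of the 4 h to 8 h steps. The cause was not tested in any of these. With only the compared libraries fitted, Sult1e1 in the fresh step from 0 h to 1 h did not pass the filter and has no value.

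Of the 5 genes, the number called for vitrified minus fresh went from 0 to 1 at 0 h (only the compared libraries, limma, DESeq2), 1 h (plates undivided, 1 plate term) and 8 h (limma). With limma it went from 2 to 1 for fresh 4 h to 8 h, from 3 to 1 for vitrified 4 h to 8 h, from 5 to 3 for vitrified 1 h to 8 h on the shared plate and from 0 to 1 for the difference of the 4 h to 8 h steps. The number called between plates went from 1 to 0 at 1 h (only the compared libraries, limma, and 0 to 1 over the fits that leave out 1 library) and at 8 h (only the compared libraries, where Cyp19a1 was not tested). Leaving plates undivided moved Sult1e1 in vitrified follicles to 8.27 from 0 h to 1 h and 8.24 from 1 h to 4 h, and Cyp19a1 to -3.03 from 4 h to 8 h.

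Counts over all genes moved more. Vitrified minus fresh called 114 genes at 0 h, 182 with library totals alone and 1553 with limma. At 1 h it called 66, against 29 with totals alone, 252 with plates undivided, 4 with only the compared libraries, 9 with limma and 7 to 105 with 1 library left out (7 without vitrified 1 h replicate 4). At 4 h it called 14, against 28 with limma, 22 with DESeq2 and 8 with the alike pair summed, an alternative chosen after seeing the data. At 8 h it called 245, against 726 with plates undivided, 121 with 1 plate term, 454 with limma, 159 without fresh replicate 4 and 43 without vitrified replicate 3. Between plates it called 163 at 1 h, against 1 with only the compared libraries, 45 with limma and 31 without vitrified replicate 4, and 2778 at 8 h, against 1177 without vitrified replicate 3. Differences of steps called 19, 5 and 118 genes, and from 1 to 43, 0 to 10 and 6 to 246 under the alternatives. Library totals alone shifted the median of all genes by -0.60 to 0.78 on the log2 scale.

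No paired analysis was possible because the replicate numbers only name libraries in accession order. Few counts limit Cyp19a1 at 8 h, with a median count of 8 in fresh and 15 in vitrified follicles of the shared plate. They also limit Esr1, with median counts of 5 and 4 at 4 h and 17.5 and 29 at 8 h. Median library totals were higher at 8 h (3917497 and 5733537) than at 4 h (2246272 and 2575435). The small groups at 8 h limit the fresh and vitrified comparison. The simulated recovery does not measure that limit, because the fit used for the results was not simulated. Of the correlations, 19 values moved with TPM or library totals.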
